A study of Mus musculus with 10 samples.

Results

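Soat2, Nacad, Fut1, Extl1, Cdsn and Dgat2 are 6 of the 19752 mouse genes that could be named on the array, and each was measured by 1 probe of the 55681 that carry gene sequence. They were chosen from these same data: none is known for a role in the stress response that the study switches on, and each had a higher level in muscle that carries the transgene, or with the drug AP20187 in both muscle and C2C12 cells. The levels and differences that follow in those comparisons are therefore a description, with no test. They were proposed as ectopic genes switched on in transgenic muscle. By the scanner's own background flags, Soat2, Nacad and Fut1 were well above background on none of the wild type arrays and on all 4 transgenic arrays. The choice drew on these flags, so they describe the 3 genes and do not test the name. Extl1, Cdsn and Dgat2 were already well above background on both wild type arrays, so the name does not hold for these 3.

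The arrays were 10 single-colour Agilent arrays in 5 groups of 2. Muscle came from male C57BL/6J mice that were either wild type and untreated, or carried hSA::Fv2E-PERK and received vehicle or AP20187 by intraperitoneal injection at 1 ng/g, with collection after 12 h. C2C12, a mouse myoblast line, carried Fv2E-PERK, was grown in 10% fetal bovine serum, differentiated for 3 days in 2% horse serum, and was given ethanol vehicle or AP20187 at 100 nM for 12 h. The transgenic vehicle mice carried the fusion kinase too, and no wild type mouse received vehicle or AP20187. Both C2C12 groups carried the construct, so no C2C12 group stood for cells without it. Nothing in the labels says whether the 2 samples of a group were separate animals or cultures, and the reported spread is the spread between those samples, which may be technical.

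PERK is an endoplasmic reticulum kinase that phosphorylates the translation initiation factor eIF2. Fv2E-PERK joins its kinase part to a module that AP20187 pairs up, so that the drug turns the kinase on without misfolded protein. In the name of the mouse line, hSA stands for the human skeletal actin promoter, which drives expression in skeletal muscle fibres. Phosphorylated eIF2 lowers general translation and raises the translation of Atf4, a transcription factor of amino acid and stress genes, which is the integrated stress response. The 6 genes have other textbook roles. Soat2 esterifies cholesterol in liver and intestine, and Dgat2 adds the last fatty acid of triglycerides. Fut1 adds the fucose of the H antigen, and Extl1 is a glycosyltransferase of the exostosin family that builds heparan sulfate. Nacad is a relative of the alpha subunit of the complex that meets nascent chains at the ribosome, and Cdsn, corneodesmosin, is an adhesion protein of the outer epidermis.

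Promoter sequence was available for 4 of the 6 genes, in a RefSeq table of the GRCm38.p6 build that holds 250 bases before and 50 bases after each transcription start. The Fut1 promoter is shown because its neighbour on chromosome 7, Fgf21, is transcribed away from it on the opposite strand. The Fgf21 promoter is shown for comparison, and those of Nacad and Extl1 for a member below background in wild type muscle and a member well above it. The sequences run 5′ to 3′ on the gene's strand. They lie at chr7:45617356-45617655 (plus strand) for Fut1, chr7:45615441-45615740 (minus) for Fgf21, chr11:6606005-6606304 (minus) for Nacad and chr4:134372498-134372797 (minus) for Extl1. Capitals mark the motif matches described next.
Fut1 promoter: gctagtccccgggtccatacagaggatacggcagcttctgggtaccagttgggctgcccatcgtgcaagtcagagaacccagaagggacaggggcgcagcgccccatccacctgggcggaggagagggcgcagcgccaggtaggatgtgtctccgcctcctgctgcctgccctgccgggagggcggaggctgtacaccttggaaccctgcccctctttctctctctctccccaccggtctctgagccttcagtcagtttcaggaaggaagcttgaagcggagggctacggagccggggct
Fgf21 promoter: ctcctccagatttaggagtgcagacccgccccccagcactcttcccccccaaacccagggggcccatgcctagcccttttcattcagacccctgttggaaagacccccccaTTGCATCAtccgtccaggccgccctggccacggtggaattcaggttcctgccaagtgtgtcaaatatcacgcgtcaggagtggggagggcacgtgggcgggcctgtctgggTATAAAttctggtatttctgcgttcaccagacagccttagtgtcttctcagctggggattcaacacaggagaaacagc
Nacad promoter: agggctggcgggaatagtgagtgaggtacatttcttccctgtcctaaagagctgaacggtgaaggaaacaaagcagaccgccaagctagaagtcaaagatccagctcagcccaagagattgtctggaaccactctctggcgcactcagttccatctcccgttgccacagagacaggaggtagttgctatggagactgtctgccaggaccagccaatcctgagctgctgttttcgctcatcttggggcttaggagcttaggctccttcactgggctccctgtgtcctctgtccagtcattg
Extl1 promoter: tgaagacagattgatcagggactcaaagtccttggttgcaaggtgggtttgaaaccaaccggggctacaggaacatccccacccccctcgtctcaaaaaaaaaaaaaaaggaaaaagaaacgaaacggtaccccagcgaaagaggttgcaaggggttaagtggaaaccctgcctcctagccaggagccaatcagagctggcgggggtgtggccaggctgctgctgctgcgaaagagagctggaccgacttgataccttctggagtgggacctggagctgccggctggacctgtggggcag

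Each 300-base window was searched on both strands for 5 motifs. TGATGNAA, the core of the C/EBP-ATF response element that Atf4 binds, occurs in 3.97% of the 32851 promoters of the table. TGACGTCA, the cAMP response element, occurs in 1.79%, the endoplasmic reticulum stress response element (CCAAT and CCACG with 9 bases of any kind between them) in 0.119%, the core of the MEF2 element (CTA and TAG with 4 bases between them) in 3.69%, and TATAAA, the TATA box, in 13.6%. No 2 of the matches found overlapped. The windows of Nacad, Fut1 and Extl1 and both start sites of Cdsn (chr17:35542851-35543150 and chr17:35551878-35552177, plus strand) held none of the 5, which says only that these letters are not in these windows. The Fgf21 window held TTGCATCA, the response element core read on the other strand, at positions -139 to -132 from the start, and TATAAA at positions -28 to -23. The GC content of the 5 windows of the 4 genes ran from 53.7% to 64.7%, against a median of 52.7% over all promoters.

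All levels below are log2 of the array's background-subtracted intensity minus that array's 75th percentile, so that 0 is the 75th percentile of the array. Levels of different probes depend on the probe and are not set against each other. Spots well above background made up 41.0% to 53.1% of an array, none was saturated, and 0.160% to 2.37% of gene spots carried an outlier flag, with both C2C12 AP20187 arrays at 2.00% or more. Of 10 skeletal muscle markers, 10 were well above background on both arrays of every group, so these flags do not tell muscle from C2C12. Their summed level, in multiples of the array's 75th percentile, was 11900 to 13500 in wild type muscle. It was 13700 to 14100 in transgenic vehicle and 10100 to 11400 in transgenic AP20187 muscle. In C2C12 it was 931 to 1030 with vehicle and 793 to 846 with AP20187. Eif2ak3, the mouse gene for PERK, had levels of -1.35 and -1.27 in wild type, -1.23 and -0.99 in transgenic vehicle and -1.13 and -0.92 in transgenic AP20187 muscle. Its difference between transgenic vehicle and wild type did not pass the test (0.20, SE 0.16, limma adjusted p = 0.362). Where the probe lies relative to the part of PERK in the construct was not examined, so this value does not check the genotype labels. The wild type arrays had another slide code in the file headers and were scanned in another session than the transgenic ones, and wild type mice were untreated while transgenic ones were injected. Genotype, injection, slide code and scan therefore cannot be told apart in any comparison with wild type. The C2C12 arrays carried the slide code of the transgenic arrays, partly at the same positions, so the code does not by itself name a physical slide.

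**Figure D1:**
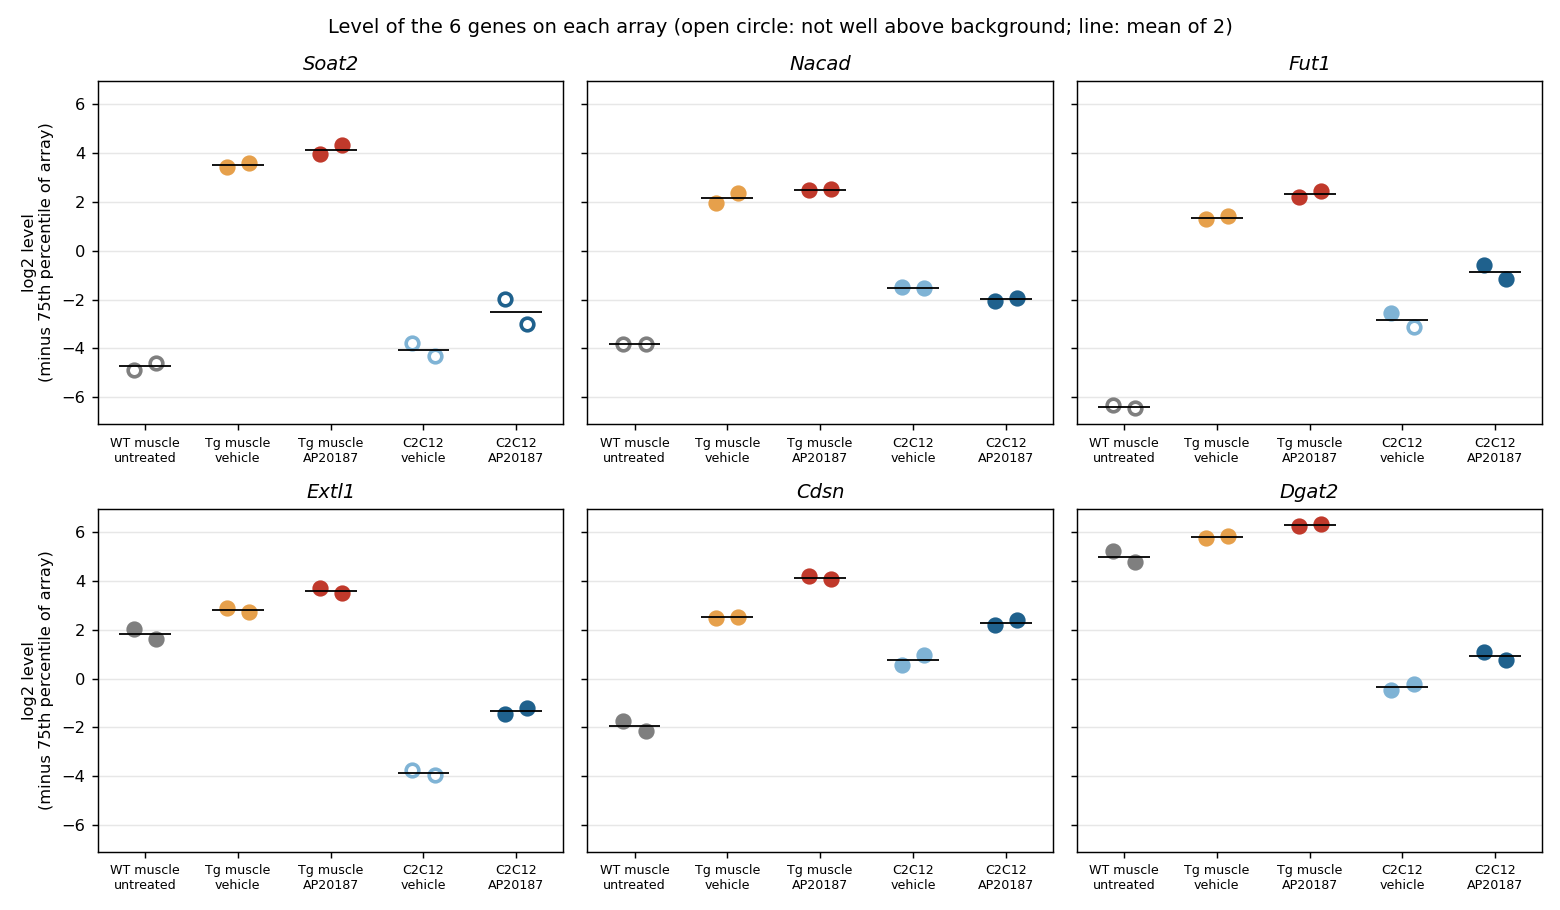
Log2 level of each of the 6 genes on each of the 10 arrays, relative to the array's 75th percentile, by group. Each circle is 1 array, filled if well above background and open if not, and lines are means of 2 arrays; Soat2, Nacad and Fut1 have open circles in wild type and filled ones in all 4 transgenic arrays.

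The sterol and glyceride enzymes came first. Soat2 had levels of -4.88 and -4.59 on the wild type arrays, neither well above background. Its levels were 3.42 and 3.58 in transgenic vehicle muscle and 3.95 and 4.33 in transgenic AP20187 muscle. All 4 transgenic arrays were far above both wild type arrays, and the AP20187 arrays were above the vehicle arrays without overlap. In processed intensity the wild type spots read 5.37 and 7.50 units, and the transgenic spots 1890 and 1980 units with vehicle and 3000 and 4090 units with AP20187. In C2C12 the levels were -3.77 and -4.32 with vehicle and -1.98 and -3.00 with AP20187, and no array was well above background, so that no fold is given there.

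Dgat2 had levels of 5.21 and 4.78 in wild type, 5.75 and 5.83 in transgenic vehicle and 6.27 and 6.32 in transgenic AP20187 muscle, all well above background. The 3 muscle groups stood in that order without overlap. In C2C12 the levels were -0.47 and -0.24 with vehicle and 1.08 and 0.77 with AP20187, again without overlap, and every C2C12 array was below every muscle array.

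Among the genes of sugar chains, Fut1 was not well above background on either wild type array, with processed intensities of 1.98 and 2.05 units and levels of -6.32 and -6.46. Its levels were 1.29 and 1.42 in transgenic vehicle and 2.20 and 2.44 in transgenic AP20187 muscle. In C2C12 they were -2.56 and -3.12 with vehicle, of which the first was well above background, and -0.57 and -1.14 with AP20187. The 5 group means ran from wild type through C2C12 vehicle (-2.84), C2C12 AP20187 (-0.86) and transgenic vehicle (1.36) to transgenic AP20187 (2.32). No neighbours in that order overlapped. The first step is not resolved, since both wild type arrays and C2C12 vehicle replicate 2 were not well above background. The lowest level well above background was -4.07 and -4.19 on the wild type arrays, and -3.27 and -2.28 on the C2C12 vehicle arrays.

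Extl1 was a gene of wild type muscle, with levels of 2.02 and 1.60 there. Its levels were 2.89 and 2.73 in transgenic vehicle and 3.70 and 3.50 in transgenic AP20187 muscle. In C2C12 the vehicle arrays, at -3.76 and -3.95, were not well above background and the AP20187 arrays, at -1.44 and -1.20, were. The order of the group means was thus C2C12 vehicle, C2C12 AP20187, wild type, transgenic vehicle, transgenic AP20187, with no overlap between neighbours.

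Nacad had levels of -3.80 and -3.83 in wild type, below background, 1.98 and 2.38 in transgenic vehicle and 2.49 and 2.53 in transgenic AP20187 muscle. The 2 transgenic groups lay close, with a gap of 0.11 between the higher vehicle array and the lower AP20187 array. In C2C12 the gene was well above background on all 4 arrays, at -1.49 and -1.54 with vehicle and -2.04 and -1.92 with AP20187, so that it was the member whose AP20187 arrays were the lower ones.

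Cdsn had levels of -1.73 and -2.15 in wild type, dim but well above background on both arrays. They were 2.48 and 2.54 in transgenic vehicle and 4.20 and 4.06 in transgenic AP20187 muscle. In C2C12 they were 0.55 and 0.97 with vehicle and 2.19 and 2.40 with AP20187. The C2C12 AP20187 arrays lay just under the transgenic vehicle muscle arrays (means 2.29 ± 0.15 and 2.51 ± 0.04, SD, n = 2), and both C2C12 groups were above wild type muscle.

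The comparison of transgenic vehicle with wild type muscle asks what differs with the transgene before the drug is given. On the log2 scale Cdsn was higher by 4.46 (SE 0.15; 21.9-fold), Extl1 by 1.00 (SE 0.15; 2.00-fold) and Dgat2 by 0.80 (SE 0.14; 1.74-fold). For the other 3 the wild type level is only a bound. For Soat2 and Fut1 it was set by the lowest signal still well above background on the wild type arrays. For Nacad it was the probe's own signal, which was higher than that, so its bound is the same as its fitted difference. Against these bounds Soat2 was at least 198-fold, Nacad at least 63.7-fold and Fut1 at least 44.7-fold higher. The fitted log2 differences of these 3, which rest on wild type spots not well above background, were 8.23 (SE 0.16), 5.99 (SE 0.15) and 7.75 (SE 0.15), and they give the genes no order.

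These sizes moved with the background correction. With normexp correction, which adds an offset of 50 units to every spot and so shrinks differences of dim probes by construction, the log2 differences were 4.81 for Soat2, 3.42 for Nacad, 3.30 for Fut1 and 3.38 for Cdsn. That of Dgat2 was 0.51 under quantile normalisation. Across all genes, 3477 of 13531 (25.7%) were called higher at a limma adjusted p under 0.05 and 1704 (12.6%) lower, 38.3% in all; the 6 genes were all among those higher, a count the rule that chose them drew on. On both transgenic vehicle arrays 42.8% of genes tested were above both wild type arrays, and the 6 genes were among these too. The split of all calls depended on the scaling, with 67.1% of them higher here against 52.9% under quantile normalisation, 46.6% with the percentile taken over detected probes, where the median of all genes moved from 0.09 to -0.07. The number called fell to 3147 without wild type replicate 1, 3395 without wild type replicate 2 and 3341 without transgenic vehicle replicate 2.

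In all, 52 of the 13531 genes were well above background on no wild type array and on all 4 transgenic arrays, the 3 members among them. Of these, 6 were at least 32-fold higher in transgenic vehicle than the wild type bound, namely Fgf21, Fut1, Gdf15, Nacad, Slc7a3 and Soat2; these names were listed after their values were seen. Fgf21 and Gdf15 are secreted stress hormones, and Slc7a3 carries cationic amino acids into cells.

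The comparison of AP20187 with vehicle in transgenic muscle asks what the drug adds in mice that carry the kinase. By the file headers the vehicle arrays lay in slide column 1 and the AP20187 arrays in columns 3 and 4. Drug and column cannot be told apart. Cdsn was higher by 1.62 (SE 0.15; 3.07-fold), Fut1 by 0.97 (SE 0.15; 1.95-fold) and Extl1 by 0.79 (SE 0.15; 1.73-fold). Soat2 was higher by 0.64 (SE 0.16; 1.56-fold), Dgat2 by 0.51 (SE 0.14; 1.42-fold) and Nacad by 0.33 (SE 0.15; 1.26-fold). Both AP20187 arrays were above both vehicle arrays for 6 of the 6 genes, as for 27.2% of all genes. The fit called 5 of the 6 higher, all but Nacad. Over all genes it called 1937 (14.3%) higher and 2028 (15.0%) lower, 29.3% together. The rule that chose the members drew on this comparison too. Their calls here and under the alternatives therefore describe them and do not test them. Over 16 alternatives the call on Dgat2 held in 10, that on Soat2 in 13 and that on Extl1 in 15. Of these alternatives, 2 are the same fit of the 4 transgenic arrays alone. Dgat2 lost it when any 1 of the 4 transgenic arrays was left out, with no filter and in the deposited table. Soat2 lost it without vehicle replicate 1, vehicle replicate 2 or AP20187 replicate 2, and Extl1 without vehicle replicate 2. Of all calls, 48.9% were higher, against 63.5% under quantile normalisation, 62.5% in the authors' deposited table. The number called, 3965, was 1874 without transgenic vehicle replicate 2, 2328 without transgenic AP20187 replicate 1 and 2579 without transgenic AP20187 replicate 2. This comparison shares its vehicle arrays with the one before, so the differences of a gene in the 2 are not independent. From wild type to transgenic AP20187 muscle the whole distance was 67.3-fold for Cdsn, 3.46-fold for Extl1 and 2.47-fold for Dgat2, and at least 309-fold for Soat2, 87.3-fold for Fut1 and 80.2-fold for Nacad.

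**Figure D2:**
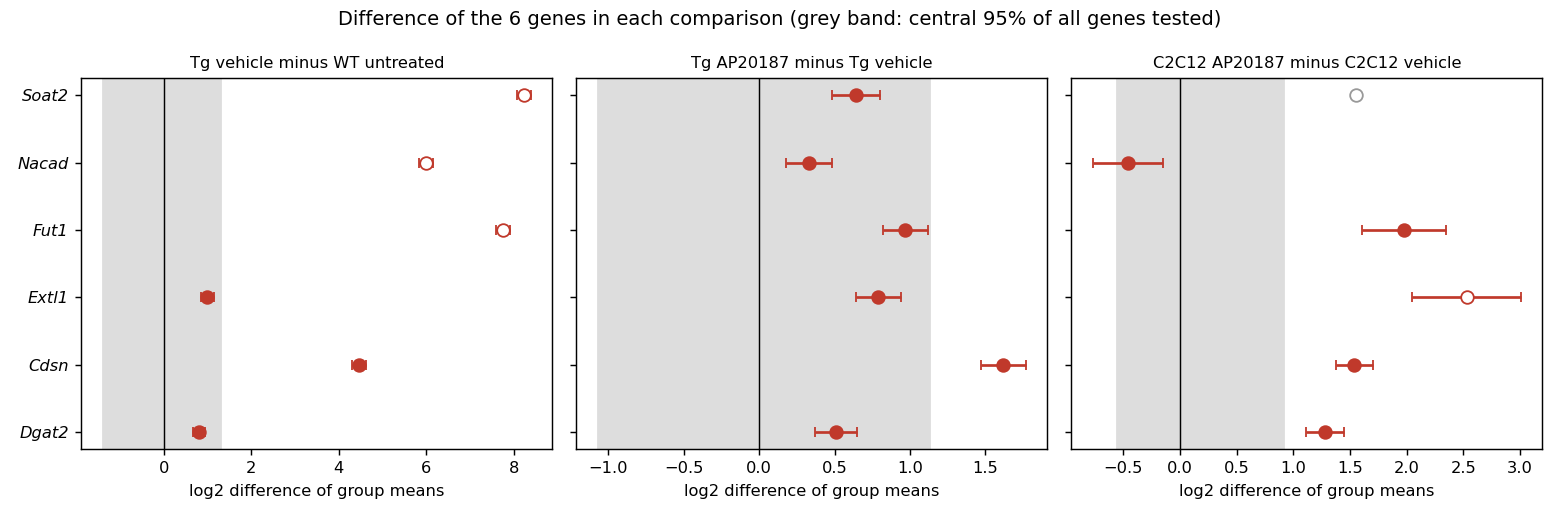
Log2 difference of group means for each of the 6 genes in 3 comparisons, with limma's standard error as bars and the central 95% of all genes tested as a grey band (from -1.39 to 1.30 in the first, -1.07 to 1.13 in the second and -0.56 to 0.92 in the third). Filled circles have both groups measured, red open circles a lower group below background, and the grey open circle (Soat2 in C2C12, 1.55) no array above background; axes differ between panels.

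In C2C12 the same drug comparison was made with arrays of 1 scan. The vehicle arrays lay in the first row of the slide and the AP20187 arrays in the second, and the 2 factors cannot be told apart. Extl1 was higher by 2.53 (SE 0.48), at least 2.74-fold, since its vehicle level is a bound. Fut1 was higher by 1.98 (SE 0.37; 3.96-fold, with 1 of 2 vehicle arrays well above background), Cdsn by 1.54 (SE 0.16; 2.90-fold) and Dgat2 by 1.28 (SE 0.17; 2.43-fold). Nacad differed by -0.46 (SE 0.31). With normexp correction the differences of Extl1 and Fut1 were 0.70 and 0.91, and that of Nacad turned to 0.14. Quantile normalisation gave -0.89 for Nacad. Both AP20187 arrays were above both vehicle arrays for 5 of the 6 genes. Among them was Soat2, which was not tested because none of its C2C12 arrays was well above background. Of all genes tested, 16.2% had this order. Of the 5 members tested, 4 were called higher, against 36 of 11390 genes (0.316%) called higher and 19 (0.167%) lower, 0.483% in all. The rule that chose the members drew on this comparison. Their calls here and under the alternatives therefore describe them and do not test them. Extl1 and Fut1 passed the background filter only through their AP20187 arrays. Over 12 alternatives the call on Extl1 held in 7, on Fut1 in 9, on Dgat2 in 10 and on Cdsn in 11. Extl1 lost it with normexp correction, with quantile normalisation, and without vehicle replicate 2 or either AP20187 array. In the deposited table Fut1, Cdsn and Dgat2 lost theirs, and Fut1 and Dgat2 also did without vehicle replicate 2, Fut1 further without AP20187 replicate 1. Those 55 calls moved with single arrays: there were 235 without C2C12 vehicle replicate 1, 16 without vehicle replicate 2, 106 without AP20187 replicate 1 and 204 without AP20187 replicate 2. Vehicle replicate 2 had the lowest share of spots well above background of all arrays.

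Genes called higher with AP20187 in both muscle and C2C12 numbered 8 of the 10641 tested in both: Atf3, Cdsn, Cth, Dgat2, Extl1, Fut1, Gadd45a and Trib3. The C2C12 call on Trib3 rests on 1 AP20187 array, since the other lacked a value after outlier flags. The rule drew on the count of 8, and 4 of the 8 are members. Of the others, Atf3 is a stress transcription factor, Trib3 a pseudokinase induced through Atf4, Cth makes cysteine from cystathionine and Gadd45a is a growth arrest gene; Cth and Gadd45a were named here after their values were seen. The known genes of the integrated stress response, a list of 24, had 19 higher and 2 lower in transgenic vehicle against wild type (median 2.10), 17 higher and 0 lower with AP20187 in muscle (median 0.88), where 0 were lower at an unadjusted p under 0.05 as well, and 4 of 21 tested higher and 0 lower in C2C12 (median 0.49, with 16 higher and 0 lower at an unadjusted p under 0.05). Gdf15, below background in wild type, was at least 223-fold higher in transgenic vehicle muscle (adjusted p = 1.72e-08), and Trib3 was higher by 7.75 (adjusted p = 3.55e-07). Ppp1r15a, a phosphatase subunit that reverses eIF2 phosphorylation, did not pass the test there (0.11, adjusted p = 0.505). With AP20187 in muscle Ppp1r15a rose by 4.01 (adjusted p = 1.2e-05) and Atf3 by 3.46 (adjusted p = 4.46e-05), and in C2C12 Atf3 rose by 1.44 (adjusted p = 0.000739).

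The genes beside the members on their chromosomes were not used in choosing them. Of the 24 nearest protein-coding neighbours, 2 on each side of each member, 22 had a probe. Between transgenic vehicle and wild type 18 were tested, of which 4 were higher and 4 lower. With AP20187 in muscle 2 of 18 were higher and 2 lower, and in C2C12 1 of 16 was called, which was Fgf21. Over all genes 25.7%, 14.3% and 0.316% were called higher in these comparisons, and 12.6%, 15.0% and 0.167% lower.

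Fgf21, a hormone of the fasting and stress responses, had levels of -4.18 and -6.42 in wild type, neither well above background. They were 5.89 and 6.01 in transgenic vehicle and 6.60 and 6.89 in transgenic AP20187 muscle, and in C2C12 2.41 and 1.77 with vehicle and 4.22 and 3.94 with AP20187. For Fut1 the step from wild type to C2C12 vehicle is not resolved. Fgf21 had the order of the 5 Fut1 means, from wild type through C2C12 vehicle, C2C12 AP20187 and transgenic vehicle to transgenic AP20187. Its difference between transgenic vehicle and wild type was at least 1080-fold (11.24, SE 0.58, adjusted p = 2.36e-05; 7.39 with normexp correction). Its difference with AP20187 in muscle was 0.80 (SE 0.58, adjusted p = 0.321), which passed the test in the fit of the 4 transgenic arrays alone, with normexp correction and without either wild type array. In C2C12 Fgf21 rose by 1.99 (SE 0.19, adjusted p = 0.000302).

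The other genes around Fut1 did not share this pattern. Bcat2, a mitochondrial enzyme of branched-chain amino acid breakdown on the far side of Fgf21, had levels between 2.57 and 2.82 on all 6 muscle arrays. Its differences were -0.02 (adjusted p = 0.886), 0.16 (0.222) and -0.27 (0.357) in the 3 comparisons. Izumo1, a sperm fusion protein next to Fut1 on the other side, was well above background on no array. Rasip1, a vascular Ras-interacting protein beyond it, had levels between 1.49 and 2.03 on the muscle arrays and differed by -0.26 between transgenic vehicle and wild type (adjusted p = 0.181).

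**Figure D3:**
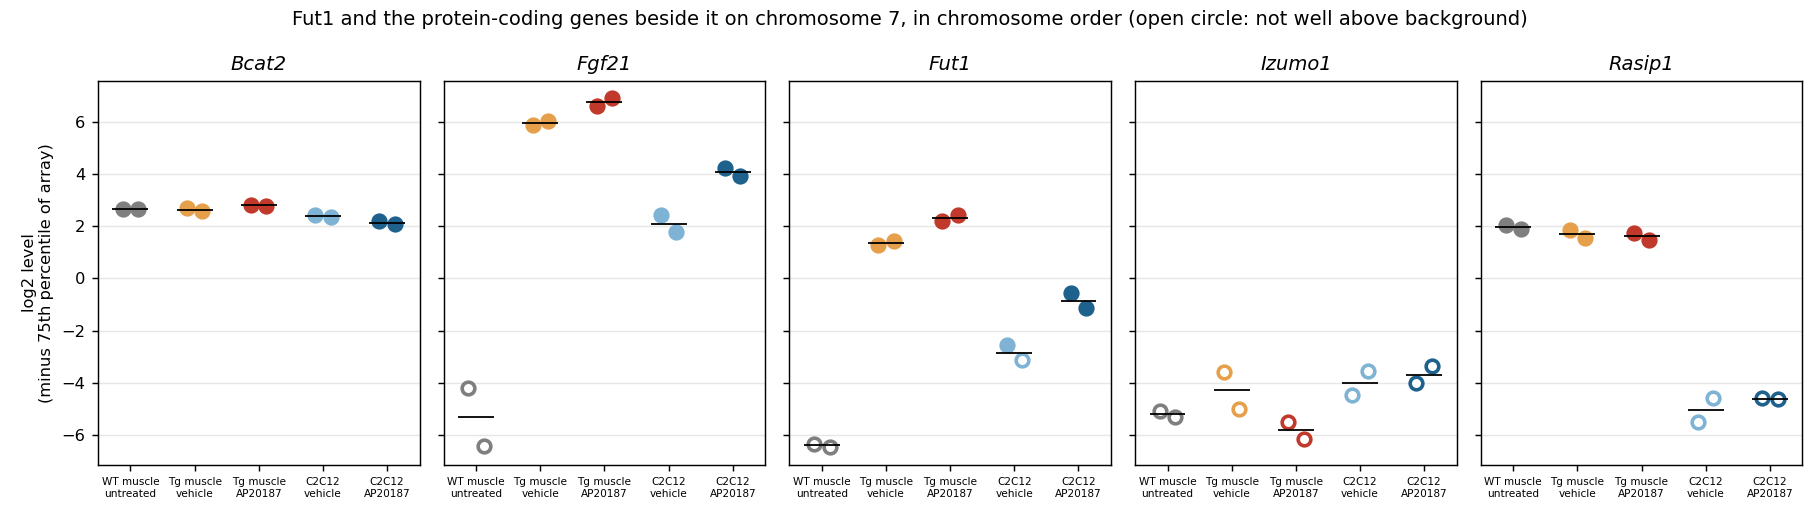
Log2 level of Fut1 and of the 2 protein-coding genes on each side of it on chromosome 7, in chromosome order, on each of the 10 arrays (filled circles well above background, open circles not, lines means of 2). Fgf21 and Fut1 are below background in wild type and above it in all transgenic muscle, Bcat2 stays between 2.57 and 2.82 in muscle, and Izumo1 has open circles throughout.

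Around the other members changes were smaller. In transgenic vehicle against wild type, Ccm2 and Tbrg4 on either side of Nacad were higher by 0.46 (adjusted p = 0.00476) and 0.54 (adjusted p = 0.00489), and Ccm2 lost the call under quantile normalisation. Uvrag, an autophagy gene beside Dgat2, was higher by 0.51 (adjusted p = 0.00503) and rose by 0.63 with AP20187 (adjusted p = 0.00396). Mogat2, on the other side of Dgat2, is an acyltransferase that makes diglycerides and is counted in the lipid list below. It fell below background and was at least 2.40-fold lower in transgenic vehicle than in wild type (adjusted p = 0.00314). Wnt11, beyond Uvrag, fell by 0.68 (adjusted p = 0.00501). Beside Extl1, Slc30a2, a zinc transporter, fell by 1.46 (adjusted p = 0.00359), and Trim63, the muscle atrophy ubiquitin ligase, fell by 1.12 (adjusted p = 0.000413) and was 0.80 higher with AP20187 (adjusted p = 0.00265). With AP20187, Igfbp6 beside Soat2 fell by 0.40 (adjusted p = 0.0190) and Myo1g near Nacad fell by 0.97 (adjusted p = 0.00738). The call on Igfbp6 was lost under quantile normalisation, in the deposited table, without transgenic vehicle replicate 2 and without transgenic AP20187 replicate 2.

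The other genes of the members' pathways were counted in 5 lists that leave the members out. Over all 5, 36 of 108 tested genes were higher and 11 lower in transgenic vehicle against wild type (median 0.19, against 0.09 over all genes). Over all genes 25.7% were called higher and 12.6% lower there. With AP20187 in muscle 7 were higher and 19 lower (median -0.23, against -0.11), where 14.3% and 15.0% of all genes were. In C2C12 1 of 90 was called, and it was higher (median -0.01, against -0.06). Without transgenic vehicle replicate 2 the first comparison called 30 genes in place of 47 and the second 10 in place of 26, and the second called 17 without transgenic AP20187 replicate 1.

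In the list of sterol ester, glyceride and lipid droplet genes, 12 of 33 were higher and 4 lower in transgenic vehicle against wild type. Over all genes 25.7% were called higher and 12.6% lower. The higher genes of the list numbered 8 under quantile normalisation and 7 with the percentile over detected probes. Gpat3, which adds the first fatty acid of glycerolipids, had levels of 0.42 and 0.75 in wild type, 2.61 on both transgenic vehicle arrays and 4.57 and 4.70 on the AP20187 arrays. It was higher by 2.03 in each of the 2 muscle comparisons (adjusted p = 5.54e-05 and 0.000175). Nceh1, which hydrolyses cholesterol esters, was higher by 1.56 in transgenic vehicle (adjusted p = 0.000302). With AP20187 in muscle 3 of 33 were higher and 5 lower, and Plin4, a droplet coat protein, rose by 0.71 (adjusted p = 0.00607) after a difference of -0.83 between transgenic vehicle and wild type.

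In C2C12, 1 of 27 lipid genes was called: Cidea, a droplet fusion protein, was at least 3.56-fold higher with AP20187 (adjusted p = 0.0346). The call was lost under quantile normalisation and without vehicle replicate 2, AP20187 replicate 1 or AP20187 replicate 2, and at an unadjusted p under 0.05 there were 6 higher and 3 lower. Markers of fat cells moved in the same comparison. Of 12 adipocyte markers, 1 was well above background on both C2C12 vehicle arrays and 10 on both AP20187 arrays, their summed level (in multiples of the array's 75th percentile) was 2.54 to 3.01 against 11.8 to 16.3, and 6 of 10 tested were higher (median 3.05). Adipoq and Lep, which define the type, were on no vehicle array, and Lep was on no AP20187 array either. In muscle the same sum was 492 to 571 in wild type, 629 to 759 in transgenic vehicle and 549 to 683 in transgenic AP20187, with 2 of 12 higher in transgenic vehicle. The part of these cells in the values of Dgat2 and of the lipid genes was not tested, and in muscle samples the number of cells of a type and the RNA per cell cannot be told apart. Markers of liver and intestine, where Soat2 is best known, were at other levels. Of 7 hepatocyte markers tested in muscle, 2 were lower and none higher by limma in transgenic vehicle against wild type (none higher at an unadjusted p under 0.05). The summed level of 10 hepatocyte markers was 25.0 to 41.0 in wild type, 20.5 to 22.9 in transgenic vehicle and 14.7 to 16.0 in transgenic AP20187 muscle. Of 8 enterocyte markers, 7 were on no array of any muscle group.

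Among the fucosyltransferases and the genes that supply GDP-fucose, 5 of 13 were higher and 0 lower in transgenic vehicle against wild type by limma. At an unadjusted p under 0.05, 1 was lower. The list's median was 0.09, as over all genes, of which 25.7% were called higher and 12.6% lower. Under quantile normalisation, and with the percentile over detected probes, 5 of the list were higher and 1 lower. Gmds and Gfus, which make GDP-fucose from GDP-mannose in turn, were higher by 0.88 (adjusted p = 0.00131) and 0.75 (adjusted p = 0.00118). With AP20187 in muscle 1 was higher and 2 were lower. Slc35c1, which carries GDP-fucose into the Golgi, rose by 0.50 (adjusted p = 0.0112), and Fut10 fell by 0.67 (adjusted p = 0.0188). The call on Slc35c1 was lost without transgenic vehicle replicate 2 or AP20187 replicate 1, and that on Fut10 in the deposited table, with probes averaged, and without transgenic vehicle replicate 1 or 2 or AP20187 replicate 1. In C2C12 none of 12 was called by limma, with 1 higher and 2 lower at an unadjusted p under 0.05.

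In the heparan sulfate list, 5 of 25 genes were higher and 3 lower in transgenic vehicle against wild type (25.7% and 12.6% of all genes), which became 2 higher and 5 lower with the percentile over detected probes. Hs2st1, a sulfotransferase, was higher by 1.27 (adjusted p = 0.000186), and Glce, the epimerase that turns glucuronic into iduronic acid, by 1.03 (adjusted p = 0.000317). With AP20187 in muscle 2 were higher and 3 lower. Glce rose by a further 1.27 (adjusted p = 0.000418), and Extl2, a relative of Extl1, fell by 0.54 (adjusted p = 0.00844). In C2C12 none of 21 was called by limma, with 3 higher and 1 lower at an unadjusted p under 0.05, and 2 were called higher with normexp correction.

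Of the nascent chain and signal recognition genes, 13 of 25 were higher and 0 lower in transgenic vehicle against wild type by limma. None was lower at an unadjusted p under 0.05 either. Over all genes 25.7% were called higher and 12.6% lower. Under quantile normalisation 8 of the list were higher and 1 lower, and with the percentile over detected probes 8 were higher. Btf3, the beta subunit of the nascent chain complex, was higher by 1.24 (adjusted p = 0.000164) and its relative Btf3l4 by 0.83 (adjusted p = 0.00104). With AP20187 in muscle 1 was higher and 8 were lower, where 14.3% and 15.0% of all genes were. Sec61a1, the channel of the endoplasmic reticulum, rose by 0.72 (adjusted p = 0.00177) and Ssr4, a subunit beside that channel, fell by 0.56 (adjusted p = 0.00865). The vehicle arrays enter both counts with opposite sign. In C2C12 none of 21 was called by limma, with 1 higher and 0 lower at an unadjusted p under 0.05.

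Of the cornified envelope list, the genes of Cdsn's own structure, 12 were tested in muscle. In transgenic vehicle against wild type 1 was higher and 4 were lower (0 and 4 with the percentile over detected probes). Over all genes 25.7% were called higher and 12.6% lower. Evpl and Ppl, plakins of the envelope, fell by 1.27 (adjusted p = 0.000586) and 0.86 (adjusted p = 0.0033), and with AP20187 Tgm3, a crosslinking enzyme, fell by 0.71 (adjusted p = 0.00586). In C2C12 none of 9 was called by limma, and none had an unadjusted p under 0.05. Of 9 keratinocyte markers with a probe, Krt1 and Klk7 were on no muscle array, and the summed level was 17.3 to 18.9 in wild type, 11.6 to 12.5 in transgenic vehicle and 11.0 to 13.0 in transgenic AP20187 muscle. In C2C12 the sum was 8.54 to 9.28 with vehicle and 7.97 to 9.45 with AP20187. The part of such cells in the values of Cdsn was not tested.

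**Figure D4:**
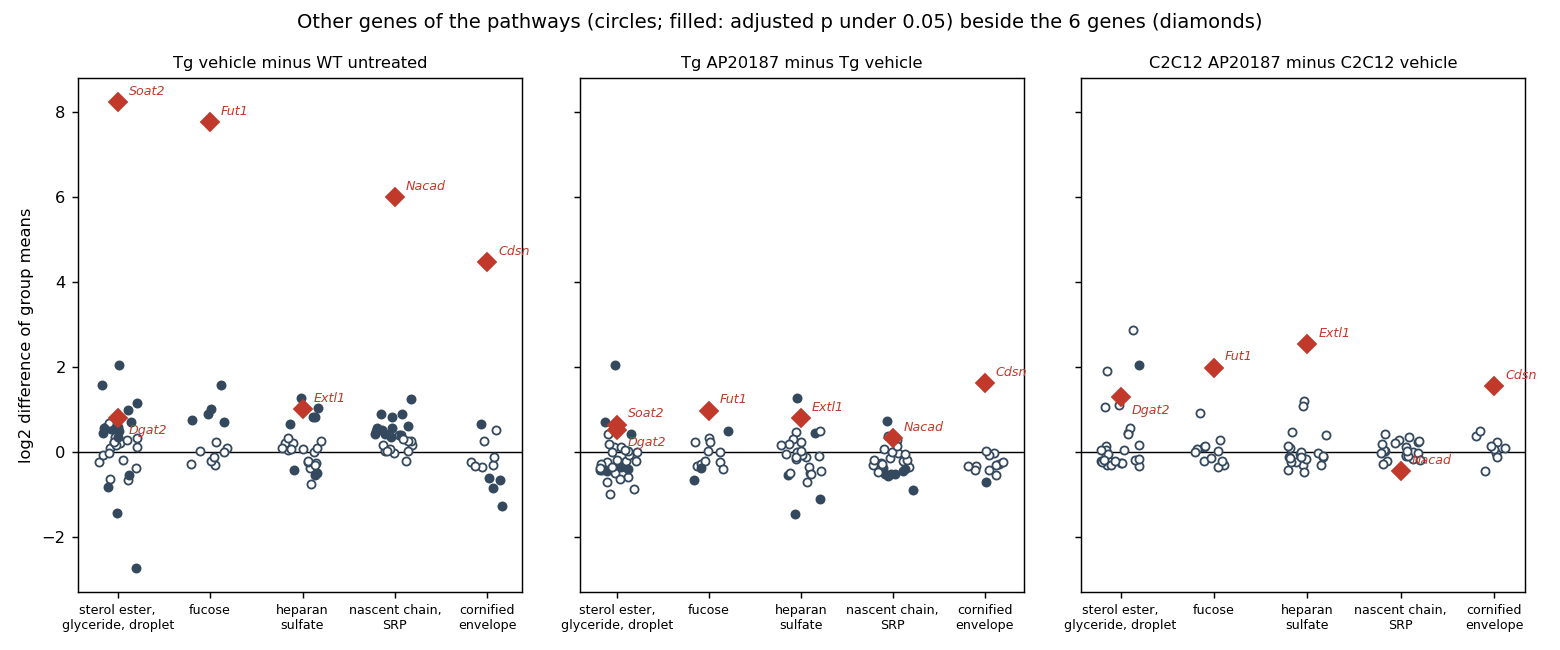
Log2 difference of each tested gene of the 5 pathway lists (circles, filled where the limma adjusted p is under 0.05) beside the 6 genes themselves (red diamonds) in the 3 comparisons. In the first panel Soat2, Fut1, Nacad and Cdsn lie above every other gene of their lists, while Dgat2 (0.80) and Extl1 (1.00) lie among theirs.

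The profiles of the 6 genes over the 10 arrays fell into unequal patterns. Correlations are given as descriptions: the points are 5 groups of 2 arrays, and the muscle and C2C12 arrays differ in nearly everything. Levels not well above background enter them too. These include Soat2, Nacad and Fut1 in wild type muscle, and Soat2, Slc28a2, Wfikkn2 and Pde7b on every C2C12 array. Extl1 and Dgat2, the 2 genes with high levels in all muscle, had r = 0.986 with each other, while Cdsn and Dgat2 had r = 0.194. Fut1 and Cdsn had r = 0.971, and Soat2 and Nacad 0.965. Among 13372 genes, the 3 most like Soat2 were Mrps17 (r = 0.993), Eif2b3 (0.992) and Apmap (0.990), a mitochondrial ribosome protein, a subunit of the exchange factor that phosphorylated eIF2 blocks, and a membrane protein of adipocytes. All 3 had small differences, of 0.81 to 0.89 between transgenic vehicle and wild type. Nacad was most like Cct4 (0.990), Slc7a3 (0.987) and Gle1 (0.984), and Cdsn most like Leprotl1 (0.988), the methionyl-tRNA synthetase gene Mars1 (0.986) and Hax1 (0.985). Fut1 was most like Adm2 (0.993), Cth (0.987) and Trmt112 (0.985). Adm2, a peptide of the adrenomedullin family, was below background in wild type and at 0.44 ± 0.07 in transgenic vehicle and 1.35 ± 0.09 in transgenic AP20187 muscle (SD, n = 2). Extl1 was most like Tfcp2l1 (0.994), Igsf1 (0.987) and Dgat2. Dgat2 was most like Slc28a2 (0.996), Wfikkn2 (0.994) and Pde7b (0.992), and 1672 genes had r over 0.95 with it, against 348 for Extl1 and 23 to 69 for the other 4.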

How the data were processed

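Each array was an Agilent single-colour mouse array hybridised with Cy3-labelled RNA (150 ng labelled per array, per the labels' protocols). The scanner files deposited by the authors give a linear spot intensity from which Agilent Feature Extraction, version 10.7.1.1, had subtracted the background, per the file headers. A value table deposited by the authors is on a log2 scale: its 55821 lines held all 55681 gene probes, and its differences between arrays matched those of the scanner intensities (r of 0.99982 or more, slopes 0.99995 to 1.0002). Its centring is unknown, and its column medians ran from -0.58 to 0.80. It served as an alternative.

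From the intensities, log2 minus each array's 75th percentile over all gene spots was computed, control spots and outlier flags were left out, and spots of a probe were averaged. RefSeq accessions were named through a GRCm38.p6 table (25521 of 26108 NM accessions matched; 26056 probes gave 19752 symbols, 14482 with 1 probe); the files' own build is another, so that table gave names, neighbours and promoters only. The brightest probe stood for its gene. Genes flagged well above background on each array of any group were tested with limma 3.58.1 in R 4.3.3 (lmFit, eBayes with a trend, Benjamini-Hochberg adjusted p under 0.05), in a fit of the 6 muscle arrays (3 residual degrees of freedom) and one of the 4 C2C12 arrays (2). The script was tested on simulated data. With 2 arrays a group, their number limits the precision.

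An "at least" fold sets the higher group's mean over all its arrays against the mean of, on each array of the lower group, the lowest signal among probes well above background or the probe's own if higher. Normexp correction (offset of 50) used the median spot and background signals, because the files hold no mean signal as the plan had assumed. Alternatives were normexp, quantile normalisation, the percentile over detected probes, the deposited table, no filter, the mean over probes, flagged spots kept, only the 2 groups compared, leaving out each array, and a replicate block. The members and lists were chosen with earlier results of these data known. Genes named besides the members are the 2 with the smallest p among those called in each list and comparison, the 2 neighbours on each side, the 3 most correlated, and Eif2ak3, unless said otherwise. The labels do not pair same-numbered samples, and their deviations correlated at 0.046 to 0.197, so no block was used in the main fit.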

Additional observations from a re-analysis of the deposited data

Results flagged for a closer look

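Nacad moved in opposite directions with AP20187 in the 2 systems. Its log2 difference was 0.33 in transgenic muscle, where both AP20187 arrays were above both vehicle arrays, and -0.46 in C2C12, where both were below them. The difference between the systems was not tested, neither change passed the test over all genes, and with normexp correction the C2C12 value was 0.14.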

How the results depend on the processing

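Of 246 values of the 6 genes under alternatives, 224 moved by less than 1 SD between replicates, 21 moved by more with the same direction, and 1 reversed: Nacad in C2C12, 0.14 with normexp correction. For AP20187 in muscle, the fit of the 4 transgenic arrays alone enters these values under 2 names. Genes beside Fut1 that had not passed the test also changed sign: Bcat2 in transgenic vehicle against wild type (-0.08 to 0.04 when an array was left out), and Rasip1 with AP20187 in muscle (-0.23 to 0.07, with 0.05 without transgenic AP20187 replicate 2). The cause of these changes was not tested. Genes called in transgenic vehicle against wild type numbered 3147 to 5203 when each array was left out in turn, and those with AP20187 in muscle 1874 to 3272. Fewer samples enter these fits. In C2C12 the 55 calls became 359 with normexp correction, 21 in the deposited table, 149 with no filter, 117 with the mean over probes, and 16 to 235 when an array was left out. Pathway genes called were 30 to 46 and 10 to 26 in the muscle comparisons with an array left out, and 17 with AP20187 in the deposited table. In C2C12 the 1 pathway gene became 5 with normexp correction, 0 with quantile normalisation, 2 in the deposited table or with no filter, 3 with the mean over probes and 0 to 5 with an array left out. With a replicate block the calls were 6418, 5592 and 99 in the 3 comparisons. The labels do not pair the samples by number. Deviations of same-numbered samples correlated at 0.046 (transgenic vehicle and wild type), 0.197 (the 2 transgenic groups), 0.153 (transgenic AP20187 and wild type) and 0.056 (C2C12). Wild type levels of Soat2, Nacad and Fut1 are bounds, since their signal is not distinguished from background there.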

Other observations

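Macrophage markers fell with AP20187 in transgenic muscle: 8 of 9 tested were lower by limma, against 15.0% of all genes (median -0.96, against -0.11). Their summed level was 34.7 to 38.8 with vehicle and 20.4 to 20.8 with AP20187, against 41.0 to 44.3 in wild type. Markers of neurons and Schwann cells, at 25.5 to 28.3 and 22.8 to 25.4 in the 2 transgenic groups, had none of 6 called in that comparison (1 lower at an unadjusted p under 0.05). Genes of developing myotubes were all 8 well above background in each muscle group, with a summed level of 67.0 to 75.7 in wild type, 46.7 to 62.2 in transgenic vehicle and 81.9 to 91.1 in transgenic AP20187 muscle. The genes of this list went both ways. In transgenic vehicle against wild type 4 were higher and 3 lower by limma, where 38.3% of all genes were called. Myh3 was higher there by 1.88 and Myod1 lower (-1.27). With AP20187 2 were higher and 1 was lower, where 29.3% of all genes were called, and Myog was higher by 3.44. These 3 genes were named after their values were seen.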
